A study of Mus musculus with 39 samples.

Results

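The transcripts described here are those of 10 genes of the Nodal pathway, found by symbol in both deposited count tables: the ligands *Nodal* and *Gdf3*, the co-receptor *Tdgf1* (also called Cripto), the receptor *Acvr2b*, the transducer *Smad2*, the nuclear factor *Foxh1*, the inhibitors *Lefty1* and *Lefty2*, and the convertases *Furin* and *Pcsk6*. Each symbol was listed once in each table, so that 10 of the 47643 genes of a table were followed. The rule is a list of gene names, with no threshold on a measured value. Bulk RNA-seq was read from 35 single mouse epiblasts and 4 lines of epiblast stem cells (EpiSCs), either wild type (WT) or *Stat3* null. Epiblasts came from *Stat3* heterozygous intercrosses on a CD1 background and were staged E5.5 (2 WT, 4 null), E6.5 (9 WT, 8 null) and E7.5 (9 WT, 3 null). EpiSCs (WT lines 8 and 13, null lines 2 and 6) were grown with FGF2, Activin A and XAV-939, an inhibitor of Wnt signalling. In the null allele a neomycin resistance cassette replaces several exons of *Stat3*, and reads on its other exons were still counted. Extraembryonic ectoderm and visceral endoderm were removed by hand, and the genotype of each embryo was read by PCR from its extraembryonic tissue. Each library is 1 epiblast, and each EpiSC sample is 1 line.

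Nodal is a secreted ligand of the TGFβ family. Its precursor is cut by the proprotein convertases Furin and Pcsk6 (PACE4), and it signals through activin receptors together with Tdgf1, after which Smad2 and Smad3 act with Foxh1 and Smad4 at target genes. *Lefty1* and *Lefty2* are themselves targets of the pathway and encode antagonists that limit it. In the mouse epiblast the pathway maintains pluripotency, patterns the anterior-posterior axis and induces the primitive streak. Activin A, which was in the EpiSC medium, uses the same intracellular route without needing Tdgf1.

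Library totals lay between 22941210 and 79013960 counts in epiblasts and between 63445877 and 127583699 counts in EpiSCs, and levels below are CPM, the count of a gene relative to its library's total after TMM scaling. *Stat3* itself was counted over the whole gene, so that WT counts include the exons that the null allele lacks. It averaged 45.2 CPM in WT and 16.9 CPM in null epiblasts at E5.5, 13.4 and 4.4 CPM at E6.5, 13.5 and 1.34 CPM at E7.5, and 20.5 and 3.33 CPM in EpiSCs. The WT and null libraries overlapped in *Stat3* at E6.5 and at no other stage. The 8 epiblast markers summed to medians of 3779 CPM in WT and 2630 CPM in null epiblasts at E5.5, 6743 and 5182 CPM at E6.5, and 1946 and 6395.5 CPM at E7.5. The part of epiblast content in the levels below was not tested. Epiblast markers were present at 1 CPM or more for 8 of 8 genes in every group except E5.5 null, where the library with the fewest held 5. That library, E5.5 null 1, stands apart: *Pou5f1*, the gene for OCT4, was at 0.662 CPM there against 99.3 to 292 CPM in the other E5.5 libraries, and the 9 extraembryonic ectoderm markers summed to 1216 CPM against 45.5 to 437 CPM. The fold changes and calls between genotypes at E5.5 are therefore given with and without it. The 8 genes of maternal decidua and blood summed to 0 to 27.3 CPM in epiblasts, with the highest sum at E7.5 null.

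The 250 bases before the start sites of *Nodal* and *Tdgf1* in RefSeq (GRCm38.p6) are shown to give the sequence context of the ligand and co-receptor on which the results at E7.5 turn. *Nodal* (ENSMUSG00000037171) lies on the plus strand of chr10:61417972-61425338, and *Tdgf1* (ENSMUSG00000032494) on the minus strand of chr9:110939603-110946158. Capitals mark GGGNGTGG, a motif of KLF and SP factors, which was chosen after the sequences were seen. The *Nodal* stretch is chr10:61417722-61417971 and the *Tdgf1* stretch is chr9:110946159-110946408, both 5′ to 3′ on the strand of the gene.
Nodal: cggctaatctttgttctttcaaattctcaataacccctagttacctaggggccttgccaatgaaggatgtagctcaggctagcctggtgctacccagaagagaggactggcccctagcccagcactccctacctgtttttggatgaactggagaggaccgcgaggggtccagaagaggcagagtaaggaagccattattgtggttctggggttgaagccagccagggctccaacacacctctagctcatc
Tdgf1: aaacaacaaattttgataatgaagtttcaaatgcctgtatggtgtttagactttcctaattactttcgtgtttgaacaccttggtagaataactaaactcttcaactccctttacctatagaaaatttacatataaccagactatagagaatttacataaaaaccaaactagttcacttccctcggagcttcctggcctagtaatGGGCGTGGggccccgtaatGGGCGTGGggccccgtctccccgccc
*Tdgf1* held the KLF motif at 2 places, 45 and 26 bases before its start, and *Nodal* held none; 15.9% of 32851 promoter windows of this length held it on either strand. Neither stretch held AATNCACA (FOXH1; 3.18% of windows), CAGACA (SMAD; 17.1%), CTTTGA (TCF and LEF; 13.8%) or TTCNNNGAA (STAT; 7.02%) on either strand. The 2 matches in *Tdgf1* do not overlap. Of the other members, *Furin*, *Pcsk6* and *Acvr2b* had an entry, and *Gdf3*, *Smad2*, *Foxh1*, *Lefty1* and *Lefty2* had none in the table used. *Pcsk6* held the KLF motif on the opposite strand, 16 bases before its start. *Furin* had 2 entries, with CAGACA 44 bases before the start in the first and 190 bases before it in the other. *Acvr2b* held none of these motifs.

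The ligands and the co-receptor were high in WT epiblasts at E6.5 and low at E7.5. *Nodal* ranged from 12.1 to 31.8 CPM in the 9 WT epiblasts at E6.5 (median 20.2) and from 0.670 to 10.1 CPM in the 9 at E7.5 (median 1.52). *Tdgf1* ranged from 42.3 to 184 CPM at E6.5 (median 113) and from 0 to 40.5 CPM at E7.5 (median 0.476). *Gdf3*, whose product signals through Tdgf1 in the same pathway, ranged from 1.495 to 25.4 CPM at E6.5 (median 4.19) and was at 0 in the median epiblast at E7.5, with a highest value of 0.260 CPM. For all 3 genes the lowest E6.5 epiblast lay above the highest E7.5 epiblast. The log2 fold change of E7.5 against E6.5 was -2.87 (SE 0.43) for *Nodal*, with an adjusted p of 8.7e-05 in edgeR. *Tdgf1* changed by -4.36 (SE 1.03, adjusted p = 0.00486 in edgeR) and *Gdf3* by -7.05 (SE 0.90, adjusted p = 2.2e-05 in edgeR). The convertase *Pcsk6* fell as well (below), so that 4 of 10 members passed the call, all of them lower, where a call needs an adjusted p under 0.05 and a log2 fold change beyond 1 in either direction. Of the 17191 genes tested in this comparison 8.83% were called and 3.09% were called lower. The median log2 fold change was -1.07 over the 10 members and 0.01 over all genes tested. The groups did not overlap for the same 4 members, while 2.4% of genes tested had groups that did not overlap. In bulk samples, fewer cells that carry a transcript and less of it per cell cannot be told apart.

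In null epiblasts *Tdgf1* and *Nodal* at E7.5 overlapped their levels at E6.5, and *Gdf3* did not. *Tdgf1* was at 64.1, 80.3 and 112 CPM in the 3 null epiblasts at E7.5, against 49.1 to 166 CPM in the 8 null epiblasts at E6.5 (median 87.3). The groups overlap fully, and the log2 fold change was -0.06 (SE 0.29, adjusted p = 0.9997 in edgeR). *Nodal* was at 14.7, 16.9 and 5.21 CPM at E7.5 against 7.87 to 49.4 CPM at E6.5 (median 19.96), a log2 fold change of -0.94 (SE 0.54, adjusted p = 0.751 in edgeR). *Gdf3* was at 1.37, 0.349 and 0.0720 CPM at E7.5, below all 8 null epiblasts at E6.5, which held 2.79 to 10.6 CPM. Its log2 fold change was -3.26 (SE 0.88, adjusted p = 0.230 in edgeR) and did not pass, while DESeq2 called it (adjusted p = 2.2e-04). No member was called between the null stages, where 0.103% of 19460 genes were. *Gdf3* was the only member whose null groups did not overlap, against 5.89% of genes tested.

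**Figure D1:**
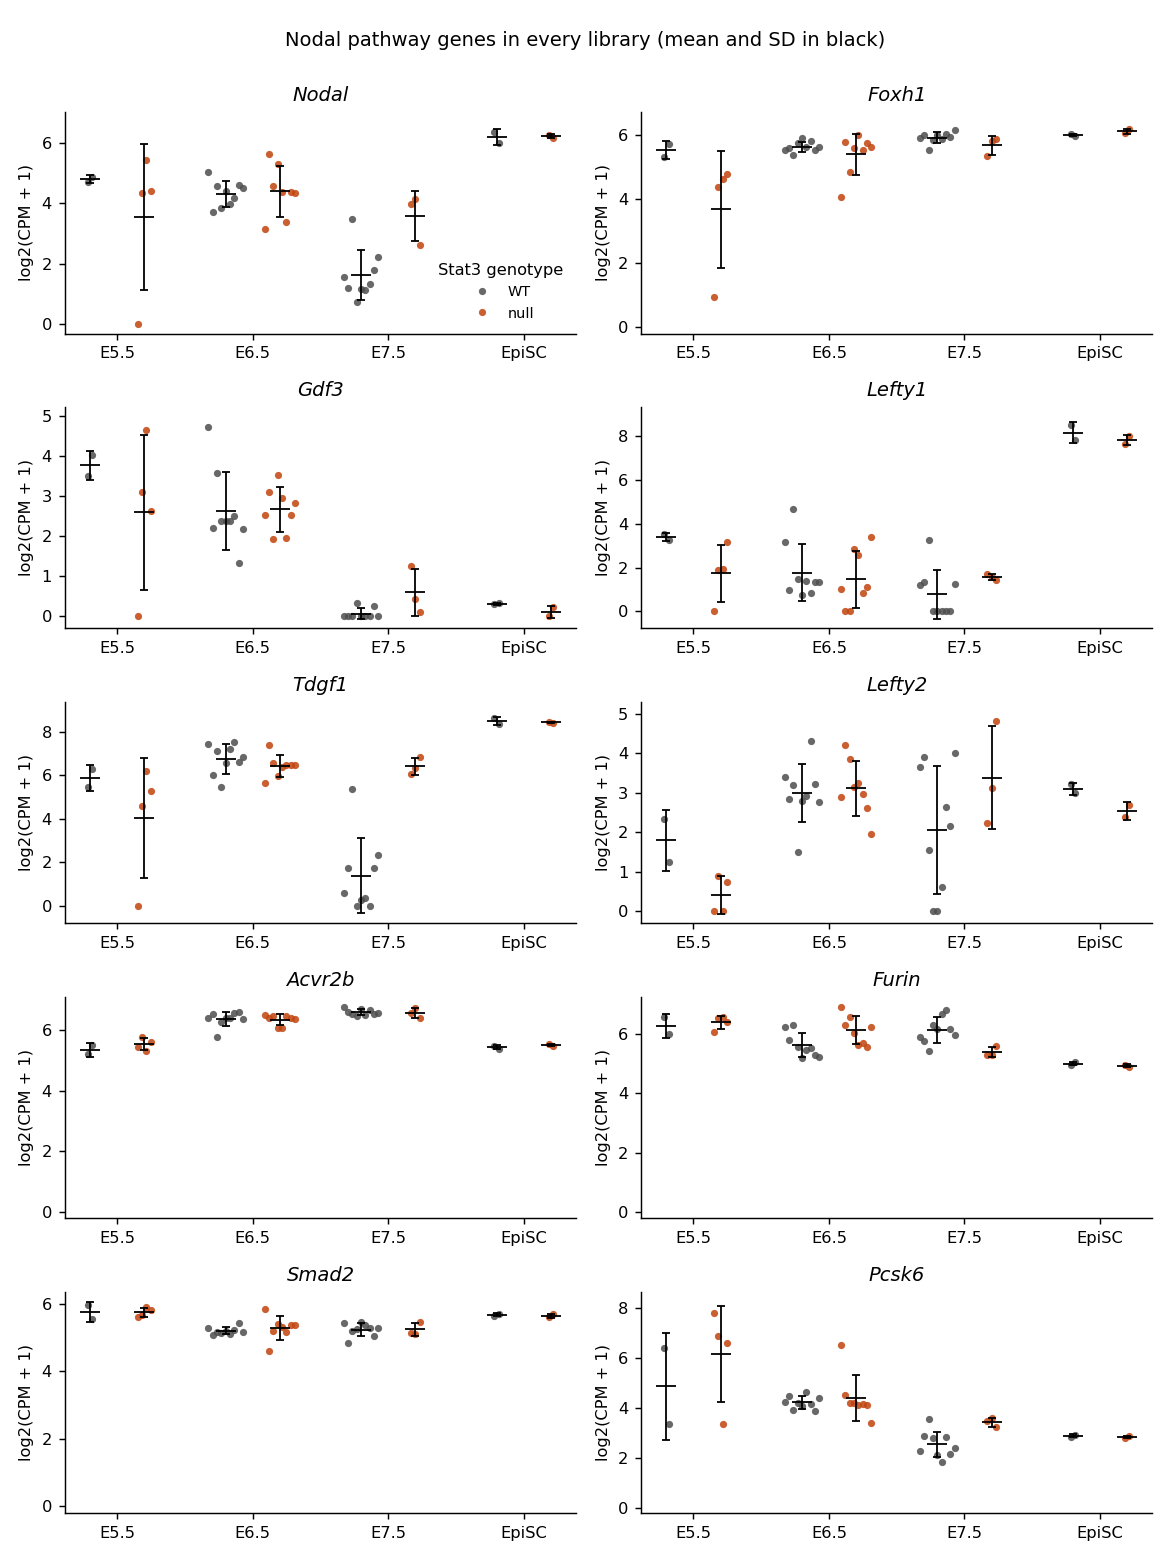
Level of each of the 10 genes in every library, as log2(CPM + 1) on a linear axis, by stage, with WT in grey and *Stat3* null in rust red; black bars are the mean and SD. At E7.5 the 3 null epiblasts lie with the E6.5 epiblasts in *Tdgf1*, while 8 of the 9 WT epiblasts lie near 0 and WT 3 lies at 40.5 CPM; E5.5 null 1 is at 0 for *Nodal*, *Gdf3*, *Tdgf1*, *Lefty1* and *Lefty2*.

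The direct comparison at E7.5 turned on 1 WT library. *Tdgf1* was at 3.98 CPM or less in 8 of the 9 WT epiblasts and at 40.5 CPM in WT 3, and all 3 null epiblasts lay above it. *Nodal* was at 0.670 to 3.62 CPM in the same 8 WT epiblasts and at 10.1 CPM in WT 3, which lies within the null range. With all 12 epiblasts, the log2 fold change of null against WT was 3.94 (SE 1.48, adjusted p = 0.174 in edgeR) for *Tdgf1* and 2.21 (SE 0.63, adjusted p = 0.0736 in edgeR) for *Nodal*. Neither passed, and 0 of the 9 members tested did, against 1.17% of 19680 genes. In edgeR 4 members had an unadjusted p under 0.05, and so did 3874 of the 19680 genes. DESeq2 called 1 member, *Nodal*, and 1010 of 29220 genes. The median log2 fold change was 0.49 over the members and -0.02 over all genes tested. Without WT 3, *Tdgf1* changed by 6.19 (SE 0.99, adjusted p = 0.00271 in edgeR) and *Nodal* by 2.83 (SE 0.42, adjusted p = 4.0e-04 in edgeR). In that fit 3 of the 9 members tested were called, all higher, the third being *Pcsk6*. It called 1105 of 19462 genes, 220 of them higher, so that calls rose across all genes too. Of 12 fits that each left out 1 epiblast, the other 11 called none of the members. The two-sided exact permutation test of mean log2 CPM with all 12 epiblasts gave p = 0.00909 for *Tdgf1*, the smallest that 3 against 9 can give, and p = 0.0182 for *Nodal*; 10 members were tested in this way and these p-values are not adjusted. *Tdgf1* was the only member tested whose groups did not overlap, against 3.92% of genes. *Gdf3* fell under the filter on low counts and was not tested by edgeR here.

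WT 3 also stood with the null epiblasts in some other transcripts, and apart from them in others. *Pou5f1* was at 605 CPM in WT 3, against 588 to 729 CPM in the null epiblasts and 154 to 436 CPM in the other 8 WT epiblasts. The epiblast markers, *Pou5f1* among them, summed to 6626 CPM in WT 3, 4790 to 6531 CPM in the null epiblasts and 1127 to 3095 CPM in the other 8 WT epiblasts. *Eomes*, a target of the pathway that is switched on in the early streak, was at 206 CPM in WT 3, 339 to 419 CPM in the null epiblasts and at most 19.98 CPM in the other 8 WT epiblasts. *Shh*, a gene of the node and axial mesoderm, was at 0 CPM in all 3 null epiblasts and in WT 3, and at 4.16 to 15.1 CPM in the other 8. It is 1 of 5 node markers, which together summed to 51.9 to 92.0 CPM in the null epiblasts, 46.5 to 89.8 CPM in the other 8 WT epiblasts and 15.3 CPM in WT 3, so that on this sum WT 3 lay below both. The 15 markers of visceral endoderm summed to 304 to 584 CPM in the null epiblasts, below all 9 WT epiblasts (752 to 5050 CPM), of which WT 3 was the lowest. The part of epiblast content, of visceral endoderm and of the stage reached by each epiblast in these differences was not tested.

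**Figure D2:**
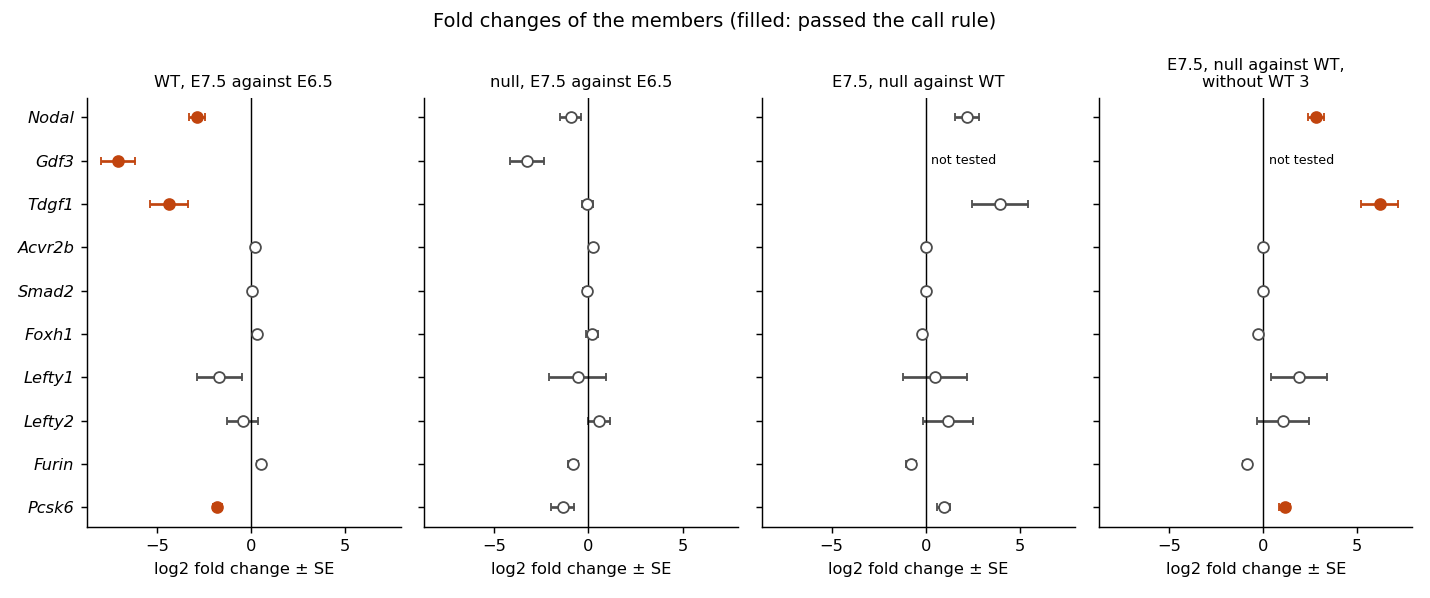
Log2 fold change with its SE for each gene in 4 fits; filled red points passed the call and open grey points did not. *Nodal*, *Gdf3*, *Tdgf1* and *Pcsk6* are called in WT between E6.5 and E7.5, no gene is called in null epiblasts or between genotypes at E7.5, and *Nodal*, *Tdgf1* and *Pcsk6* are called at E7.5 once WT 3 is left out.

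Whether the stage difference itself depended on genotype was tested as an interaction. The difference between the null and the WT change was 4.30 on the log2 scale (SE 1.26) for *Tdgf1*, 3.78 (SE 1.16) for *Gdf3*, 1.93 (SE 0.67) for *Nodal* and -1.33 (SE 0.35) for *Furin*. Their unadjusted p-values were 0.00219, 0.00261, 0.00759 and 6.2e-04 in edgeR, and the adjusted values were 0.0949, 0.1002, 0.154 and 0.0634. None of the 10 members was called, against 0.443% of 22122 genes. DESeq2 called 2 members, *Gdf3* and *Furin*, and 633 of 32020 genes. Without WT 3, *Tdgf1* (6.54, SE 0.84, adjusted p = 3.9e-05 in edgeR), *Nodal* (2.55, SE 0.54, adjusted p = 0.0055 in edgeR) and *Furin* (-1.41, SE 0.34, adjusted p = 0.0146 in edgeR) were called. Leaving out E6.5 null 5, E6.5 null 7, E6.5 WT 1 or E6.5 WT 3 called 1 member each, *Furin*. The null epiblasts at E7.5 were also set against the WT epiblasts at E6.5. None of the 10 members was called, against 0.162% of 19749 genes. The log2 fold change was -0.44 (SE 0.38) for *Tdgf1*, -0.68 (SE 0.34) for *Nodal*, -3.51 (SE 0.996) for *Gdf3* and -0.85 (SE 0.20) for *Pcsk6*, with adjusted p-values of 0.867, 0.602, 0.212 and 0.116 in edgeR. *Gdf3* and *Pcsk6* were lower in all 3 null epiblasts than in all 9 WT epiblasts at E6.5, where 4.4% of genes did not overlap, and DESeq2 called *Gdf3*. These comparisons share libraries with those above and are not separate evidence.

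At the 2 earlier stages *Nodal* and *Tdgf1* overlapped between genotypes. At E6.5 *Nodal* ranged from 7.87 to 49.4 CPM in null epiblasts (median 19.96) and from 12.1 to 31.8 CPM in WT epiblasts (median 20.2). *Tdgf1* had medians of 87.3 CPM in null and 113 CPM in WT epiblasts, and its log2 fold change was -0.37 (SE 0.26, adjusted p = 0.809 in edgeR). None of the 10 members, and none of 17095 genes (0%), was called between genotypes at E6.5 by edgeR, where 1414 genes and 1 member had an unadjusted p under 0.05; DESeq2 called 28 genes and no member. No member's groups were separate at E6.5, against 0.0585% of genes. At E5.5 *Nodal* was at 25.1 and 28.7 CPM in the WT epiblasts, and at 0, 19.2, 42.7 and 20.2 CPM in null epiblasts 1 to 4. *Tdgf1* was at 42.1 and 76.7 CPM in WT, and at 0, 23.1, 71.5 and 37.6 CPM in null epiblasts. Null epiblasts 2 to 4 thus lay on both sides of the WT values in *Nodal* and within or below them in *Tdgf1*, and null 1 held no count of either gene. With all 6 epiblasts the log2 fold change was -0.38 (SE 1.63) for *Nodal* and -0.84 (SE 1.66) for *Tdgf1*, and it was 0.03 (SE 0.38) and -0.42 (SE 0.46) without null 1. None of the 10 members and none of 18690 genes (0%) was called at E5.5 by edgeR, with or without null 1, where 467 genes and no member had an unadjusted p under 0.05 in the fit of all 6; DESeq2 called 32 genes and no member.

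*Tdgf1* has near-identical copies in the genome. Over their longest match of 512 bases, *Tdgf1* and the processed pseudogene *Tdgf1-ps1* were 98.8% identical, and *Tdgf1-ps2* and *Gm13455* were 90.4% and 91.1% identical over their longest matches. *Tdgf1-ps1* was at 1.55 to 15.6 CPM in E6.5 WT epiblasts and at 0 CPM in 7 of the 9 E7.5 WT epiblasts, while *Tdgf1-ps2* stayed under 1 CPM in every library and *Gm13455* was listed at 0. How the counting divided reads between *Tdgf1* and *Tdgf1-ps1* is not given in the sources used here, so their split is uncertain.

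Between E6.5 and E7.5 the receptor and the intracellular transducers varied less in WT epiblasts than the ligands. *Acvr2b*, a type II receptor shared by Nodal and activins, had median levels of 40.1 and 44.7 CPM in WT and null epiblasts at E5.5, 82.9 and 83.6 CPM at E6.5, and 93.9 and 94.1 CPM at E7.5. Between E5.5 and E6.5 in WT it rose by 1.05 on the log2 scale (SE 0.20, adjusted p = 0.00573 in edgeR), and all 9 E6.5 epiblasts lay above both E5.5 epiblasts. It was the only member of 10 called there, against 5.15% of 20763 genes (2.52% called higher), and *Smad2* was the only other member whose groups did not overlap, against 16.9% of genes. The fold change of *Acvr2b* sits at the threshold of 1: DESeq2, RLE size factors, a mean count of at least 50, or leaving out the abundant genes moved it below, and so did leaving out E6.5 WT 2, 7, 8 or 9. Leaving out E5.5 WT 1 gave 0.85 (SE 0.25, adjusted p = 0.169 in edgeR), and the replicate block gave 1.12 (SE 0.21, adjusted p = 0.0974 in edgeR). DESeq2 called 2 members in this comparison, *Gdf3* and *Pcsk6*, both lower, and 2037 of 28983 genes, 980 of them lower. In E6.5 null against E5.5 WT epiblasts the log2 fold change of *Acvr2b* was 0.99 (SE 0.18, adjusted p = 0.0532 in edgeR), and none of the 10 members was called, against 0.162% of 20326 genes. *Acvr2b* was the only member whose groups did not overlap in that comparison, against 10.3% of genes. The 15 visceral endoderm markers summed to 11458 and 12318 CPM in E5.5 WT, against a median of 465 CPM in E6.5 WT. E6.5 WT 3 had the highest sum of its group (7227 CPM) and the least *Acvr2b* (53.4 CPM). E6.5 null 3 had the highest sum of its group (8275 CPM) and held 87.5 CPM, and E5.5 null 1, with a sum of 72.4 CPM, held 42.2 CPM. The part of visceral endoderm in the *Acvr2b* change was not tested.

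*Smad2*, which carries the signal to the nucleus, was at 45.3 and 60.6 CPM in WT epiblasts at E5.5 and at 32.5 to 41.9 CPM in WT at E6.5. Its log2 fold change was -0.55 (SE 0.14, adjusted p = 0.0283 in edgeR), which is under the size that a call requires. At E6.5 null epiblasts spread from 23.2 to 55.6 CPM around a median of 39.5 CPM, and at E7.5 *Smad2* had medians of 37.6 CPM in WT and 34.2 CPM in null epiblasts. *Foxh1*, the DNA-binding partner of Smad2, was at 41.1 to 59.2 CPM in WT at E6.5 and at 45.7 to 71.2 CPM in WT at E7.5, a log2 fold change of 0.29 (SE 0.08, adjusted p = 0.0135 in edgeR) that is also under the size of a call. The lowest of these E7.5 values, 45.7 CPM, was in WT 3. *Foxh1* was at 56.4 to 71.2 CPM in the other E7.5 WT epiblasts, where *Nodal* and *Tdgf1* were low. At E5.5 *Foxh1* was at 39.3 and 52.1 CPM in WT and at 0.938, 19.7, 23.9 and 26.4 CPM in null epiblasts 1 to 4. All 4 null epiblasts lay below both WT epiblasts, the log2 fold change was -1.36 (SE 1.0, adjusted p = 0.999 in edgeR), and without null 1 it was -0.96 (SE 0.24, unadjusted p = 0.0043 and adjusted p = 0.9998 in edgeR). *Foxh1*, *Lefty1* and *Lefty2* were the 3 of 10 members whose groups did not overlap at E5.5, where 11.7% of genes did not; without null 1 they were the same 3, against 19.9% of genes. The exact permutation test gave p = 0.133 for *Foxh1*, the smallest p that 4 against 2 can give, and p = 0.2 without null 1, the smallest that 3 against 2 can give.

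The *Lefty* genes, which the pathway induces and which in turn limit it, were low in most epiblasts. *Lefty1* and *Lefty2* lie beside each other on chromosome 1 (chr1:180935022-180938400 and chr1:180893108-180899103) and matched at 91.4% over 1157 bases, so that the split of reads between them is uncertain. *Lefty2* was at 4.09 and 1.37 CPM in WT epiblasts at E5.5 and at 0, 0.860, 0 and 0.680 CPM in null epiblasts 1 to 4. The log2 fold change was -2.81 (SE 1.97, adjusted p = 0.999 in edgeR) and did not pass, and without null 1 it was -2.40 (SE 1.65). At E6.5 *Lefty2* had medians of 6.57 CPM in WT and 7.40 CPM in null epiblasts. The log2 fold change against E5.5 WT was 1.56 (SE 0.68, adjusted p = 0.188 in edgeR) in WT and 1.65 (SE 0.75, adjusted p = 0.510 in edgeR) in null epiblasts. At E7.5 the WT epiblasts ranged from 0 to 15.1 CPM (median 3.50) and the null epiblasts were at 3.67, 7.76 and 27.2 CPM. The groups overlapped, and the log2 fold change of 1.17 (SE 1.32, adjusted p = 0.738 in edgeR) was within its error; without null 3, the highest, it was -0.00062.

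*Lefty1* was at 10.7 and 8.65 CPM in WT epiblasts at E5.5 and at 0, 2.67, 2.89 and 7.97 CPM in null epiblasts 1 to 4. At E6.5 the median was 1.52 CPM in WT and 1.10 CPM in null epiblasts, with the highest value, 24.7 CPM, in WT 3. At E7.5 it was listed at 0 in the median WT epiblast, at 8.52 CPM in WT 3 and at 2.29, 1.99 and 1.70 CPM in the null epiblasts. The log2 fold change of E7.5 against E6.5 in WT was -1.70 (SE 1.19, adjusted p = 0.333 in edgeR), and that of null against WT at E7.5 was 0.49 (SE 1.72, adjusted p = 0.937 in edgeR) and turned negative in the fit with the replicate number as a block (-0.33). The exact permutation test with WT 3 included gave p = 0.145. WT 3 held the most *Lefty1* of the WT epiblasts, and the other 8, at 0 to 1.55 CPM, lay below all 3 null epiblasts. Leaving out WT 3, the only WT epiblast above the null values, thus fixes that the groups separate. The exact permutation test can then only give its smallest p for 3 against 8, 0.0121, which is no further evidence. The share of all genes whose groups separate without WT 3 was not counted. Without WT 3 edgeR gave a log2 fold change of 1.91 (SE 1.48, adjusted p = 0.5005). *Lefty1* is also a gene of the anterior visceral endoderm, and the levels of that tissue's markers differed between libraries. *Hhex*, *Dkk1* and *Cer1* together summed to 70.5 and 113 CPM in E5.5 WT, 0 (null 1) to 88.8 CPM in E5.5 null, 2.32 to 69.8 CPM in E6.5 WT, 2.05 to 133 CPM in E6.5 null, 46.7 to 116 CPM in E7.5 WT and 37.1 to 105 CPM in E7.5 null epiblasts, and none of the 3 was at 0 throughout a group. E6.5 WT 3 had the highest sum of its group. The part of that tissue in the *Lefty1* values was not tested. The 15 markers of visceral endoderm as a whole summed to 11458 and 12318 CPM in E5.5 WT, to 72.4 CPM in E5.5 null 1 and 12851 to 21079 CPM in the other 3 E5.5 null, to 330 to 7227 CPM in E6.5 WT (median 465; highest in WT 3) and to 317 to 8275 CPM in E6.5 null epiblasts (median 1448).

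**Figure D3:**
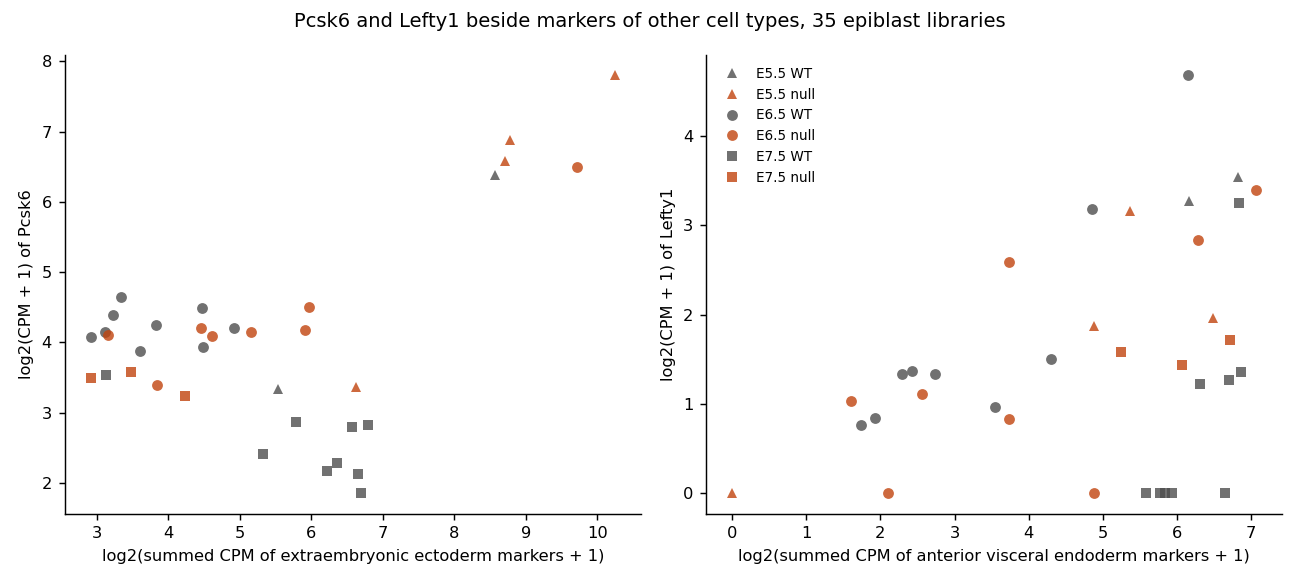
Left, *Pcsk6* against the summed level of 9 extraembryonic ectoderm markers, and right, *Lefty1* against that of 3 anterior visceral endoderm markers, each as log2(CPM + 1) for the 35 epiblasts, with the stage by symbol and the genotype by colour. The 5 epiblasts with the highest marker sums on the left, 379 CPM or more, hold the 5 highest *Pcsk6* levels, 82.1 to 222 CPM.

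The convertases cut the Nodal precursor, and in the early embryo both are known from the extraembryonic ectoderm. *Pcsk6* was at 82.1 and 9.11 CPM in WT epiblasts at E5.5 and at 222, 117, 9.32 and 94.5 CPM in null epiblasts 1 to 4. Each group thus held high and low libraries, and the log2 fold change was 1.29 (SE 1.29, adjusted p = 0.999 in edgeR), or 0.69 without null 1. At E6.5 it ranged from 13.6 to 24.0 CPM in WT and from 9.55 to 89.2 CPM in null epiblasts, with the highest value in null 1 and 21.6 CPM in the next. *Elf5*, which defines the extraembryonic ectoderm, was at 71.4 CPM in E5.5 WT 1, at 277, 84.2 and 58.1 CPM in E5.5 null 1, 2 and 4, and at 182 CPM in E6.5 null 1. These are the same 5 libraries that held over 80 CPM of *Pcsk6*, and *Elf5* was at or below 12.1 CPM in all other epiblasts. All 9 markers were found at 1 CPM or more in at least 1 library of each E5.5 group and of E6.5 null, and no marker was at 0 throughout an epiblast group. The part of extraembryonic ectoderm in these *Pcsk6* levels was not tested. In WT the log2 fold change from E5.5 to E6.5 was -1.33 (SE 0.46, adjusted p = 0.0899 in edgeR), -2.22 without E5.5 WT 2 and 0.95 without E5.5 WT 1.

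Between E6.5 and E7.5 in WT, where *Elf5* did not exceed 2.84 CPM and the 9 markers summed to 6.55 to 29.2 CPM at E6.5 and 7.72 to 110 CPM at E7.5, *Pcsk6* fell to 2.62 to 10.6 CPM (median 4.30), a log2 fold change of -1.78 (SE 0.23, adjusted p = 1.9e-05 in edgeR) with groups that did not overlap. In null epiblasts the change was -1.37 (SE 0.61, adjusted p = 0.578 in edgeR). At E7.5 the null epiblasts were at 10.2, 10.96 and 8.40 CPM, above 8 of the 9 WT epiblasts and on both sides of WT 3. The log2 fold change of null against WT was 0.95 (SE 0.34, adjusted p = 0.138 in edgeR), and 1.15 (SE 0.28, adjusted p = 0.0123 in edgeR) without WT 3. The exact permutation test with all 12 gave p = 0.0273.

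*Furin* differed from *Pcsk6* in the sign of its fold change between the WT stages and between genotypes at E7.5, and neither fold change of *Furin* passed the call. In WT it was at 35.3 to 78.4 CPM at E6.5 (median 45.1) and at 41.7 to 111 CPM at E7.5 (median 70.8), a log2 fold change of 0.53 (SE 0.19, adjusted p = 0.0463 in edgeR) that is under the size of a call. In null epiblasts it was at 46.5 to 118 CPM at E6.5 (median 69.4) and at 38.5, 38.0 and 47.0 CPM at E7.5, a log2 fold change of -0.80 (SE 0.27, adjusted p = 0.398 in edgeR). At E7.5 the log2 fold change of null against WT was -0.78 (SE 0.25, adjusted p = 0.10005 in edgeR; exact permutation test p = 0.0182), and WT 3, at 41.7 CPM, was the lowest WT epiblast. The visceral endoderm markers moved with these values: WT 7 and WT 6 had the highest sums, 5050 and 4713 CPM, and the most *Furin*, 111 and 100.05 CPM, while WT 3 was the lowest WT epiblast in both and the null epiblasts lay below all WT epiblasts in the sum. The part of visceral endoderm in the *Furin* values was not tested. At E6.5 the log2 fold change of null against WT was 0.53 (SE 0.20, unadjusted p = 0.0166 and adjusted p = 0.478 in edgeR; exact permutation test p = 0.0369). The E6.5 epiblasts fall into 6 with over 40000000 counts and 11 with fewer. The difference of mean log2 CPM was 0.48 in the first (3 null against 3 WT, exact permutation test p = 0.2) and 0.47 in the second (5 against 6, exact permutation test p = 0.00433). All 10 members were tested in both depth groups, and the last p is the smallest of these and is not adjusted. Without null 1, which held the most *Elf5*, the exact permutation test gave p = 0.0771.

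*Lefty1*, *Tdgf1* and *Nodal* had higher values in every EpiSC line than in any epiblast, and no member passed the test between genotypes. *Lefty1* was at 362 and 227 CPM in WT lines 8 and 13 and at 203 and 255 CPM in null lines 2 and 6. *Tdgf1* was at 388, 324, 345 and 340 CPM in the same order, and *Nodal* at 82.3, 63.8, 77.1 and 71.5 CPM. *Gdf3* was at or below 0.249 CPM and *Pcsk6* at 6.01 to 6.58 CPM. EpiSCs and epiblasts were processed as separate tables with separate library kits, so levels across them are set side by side without a test. *Lefty2* was at 8.30 and 7.01 CPM in WT and at 4.22 and 5.51 CPM in null lines. Both null lines lay below both WT lines, and the log2 fold change was -0.66 (SE 0.21, unadjusted p = 0.0183 and adjusted p = 0.393 in edgeR). For *Lefty1* it was -0.37 (SE 0.28, adjusted p = 0.819 in edgeR), and 0.015 without WT line 8. None of the 10 members was called, against 0.106% of 20736 genes. The groups of *Gdf3*, *Acvr2b*, *Foxh1* and *Lefty2* did not overlap, 4 of 10 members, where 39.5% of genes did not; an exact permutation test of 2 against 2 cannot give a p under 0.333.

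Levels of different genes can be compared per kilobase of exon, taken from GENCODE vM21. In E6.5 WT epiblasts *Tdgf1* stood highest at 44.3 CPM per kb (SD 18.0, n = 9), followed by *Foxh1* at 36.2 (SD 4.01) and *Acvr2b* at 20.9 (SD 3.12). *Tdgf1* and *Foxh1* were not apart beyond their spread. *Nodal* followed at 9.44 (SD 2.95) and *Furin* at 5.46 (SD 1.73), and the remaining 5 members lay between 2.64 and 4.05 with overlapping spread. In E7.5 WT epiblasts *Foxh1* led at 44.1 (SD 5.12, n = 9), *Tdgf1* was at 2.12 (SD 5.02) and *Nodal* at 1.28 (SD 1.40). In E7.5 null epiblasts *Foxh1* at 37.6 (SD 7.36, n = 3) and *Tdgf1* at 32.5 (SD 9.19) again stood together. In WT EpiSCs *Lefty1* at 168 CPM per kb (SD 54.3, n = 2) and *Tdgf1* at 136 (SD 17.5) led, within each other's spread, ahead of *Foxh1* at 46.5 (SD 1.17) and *Nodal* at 34.9 (SD 6.26).

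**Figure D4:**
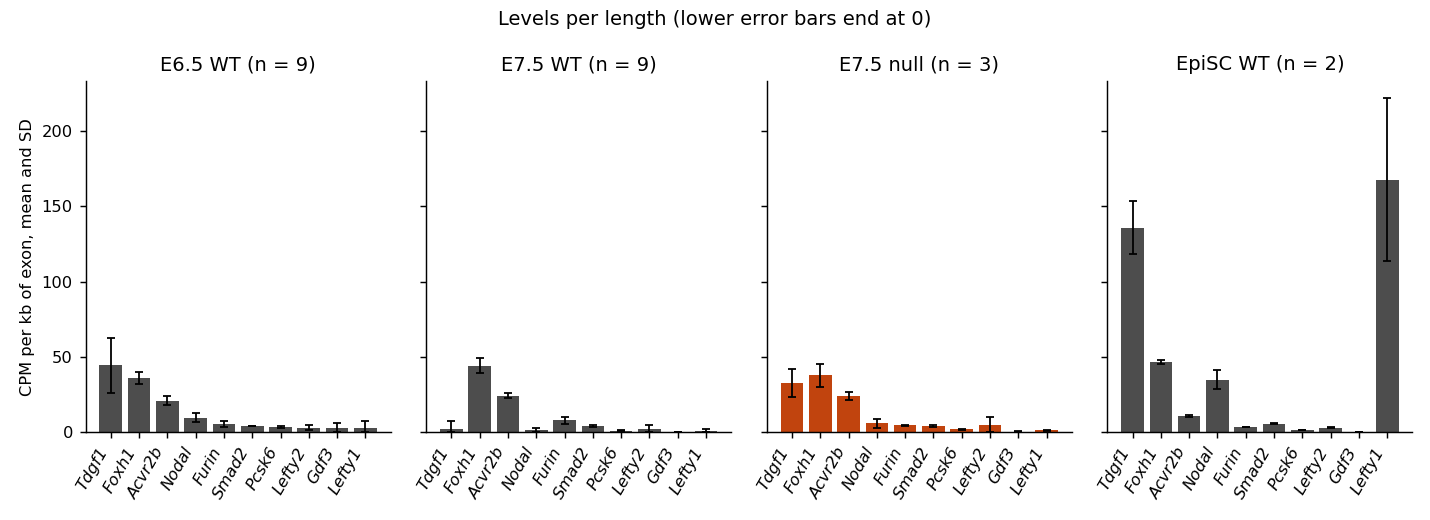
Mean level per kilobase of exon with its SD (CPM per kb, linear axis from 0) in 4 groups, with the genes in their order in E6.5 WT epiblasts. *Tdgf1* is at 44.3 in E6.5 WT, 2.12 in E7.5 WT and, for null epiblasts at E7.5, 32.5, and *Lefty1* is at 2.64 in E6.5 WT epiblasts and 168 in WT EpiSCs.

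Among 27 further genes of the pathway, those that changed in WT epiblasts between E6.5 and E7.5 included feedback inhibitors and streak genes. Of 24 tested, 5 were called lower and 4 higher, with a median log2 fold change of -0.14, where 8.83% of all genes were called. The called-lower genes included *Smad7* (-1.77, SE 0.24), *Skil* (-2.07, SE 0.35) and *Pmepa1* (-3.41, SE 0.94), which restrain Smad signalling inside the cell, and the transcription factor *Eomes* (-2.93, SE 0.80), with adjusted p-values of 5.0e-05, 3.6e-04, 0.0128 and 0.0124 in edgeR. The called-higher genes were the co-receptor gene *Cfc1* (2.12, SE 0.46), the transducer *Smad3* (1.04, SE 0.14), the convertase *Pcsk5* (3.46, SE 0.64) and the antagonist *Cer1* (2.82, SE 0.71), with adjusted p-values of 0.00194, 3.6e-05, 6.6e-04 and 0.0072 in edgeR. *Cfc1* did not pass in the fit of all 35 epiblasts (adjusted p = 0.125 in edgeR), and *Smad3* fell under the size of a call without E6.5 WT 3 (0.98). *Cer1* is also 1 of the 3 anterior visceral endoderm markers. The 15 visceral endoderm markers had a median sum of 465 CPM in E6.5 WT and 2110 CPM in E7.5 WT, and their part in the higher calls was not tested. In null epiblasts between the same stages, of 25 tested only *Fst*, which binds activins, was called, and it was higher (2.63, SE 0.42, adjusted p = 0.0301 in edgeR; 7.64 to 47.2 CPM at E6.5 and 96.9 to 136 CPM at E7.5), where 0.103% of all genes were. The call was lost in every fit that left out an E7.5 null epiblast (adjusted p = 0.124 to 0.159 in edgeR) and without E6.5 null 4, 5 or 8. Between genotypes at E7.5, of 24 tested only *Dand5*, a Nodal antagonist of the node, was called, and it was lower in null epiblasts (-4.73, SE 1.14, adjusted p = 0.0455 in edgeR), at 0 to 0.161 CPM against 0.296 to 5.49 CPM in WT; 1.17% of all genes were called. Its call was lost without any 1 of the null epiblasts (adjusted p = 0.129 to 0.175 in edgeR) and without any 1 of the WT epiblasts other than WT 2 and WT 3. In WT between E5.5 and E6.5, of 25 tested only *Pcsk5* was called, and it was lower (-3.09, SE 0.84, adjusted p = 0.0346 in edgeR), where 5.15% of all genes were. Its call was lost without either E5.5 WT epiblast (adjusted p = 0.266 without WT 1 and 0.0896 without WT 2 in edgeR) and without E6.5 WT 4, 6, 7 or 9. Visceral endoderm markers also differed between these stages (above), and their part in the *Pcsk5* change was not tested. In the interaction *Tgif1*, a corepressor of Smad2, was the only one of 25 called (1.11, SE 0.22, adjusted p = 0.0199 in edgeR), where 0.443% of all genes were. Its call was lost without E7.5 null 1, 2 or 3 (adjusted p = 0.134, 0.119 and 0.05001 in edgeR). It averaged 129 CPM in WT and 89.9 CPM in null epiblasts at E6.5, and 87.3 and 133 CPM at E7.5. None of the 27 was called between genotypes at E5.5, at E6.5 or in EpiSCs, in E7.5 null against E6.5 WT, or in E6.5 null against E5.5 WT.

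The genes most like 6 members across the 35 epiblasts were taken by Pearson's r of log2 CPM among 10949 genes with a mean of at least 5 CPM, as a description that mixes stages, genotypes and library content. *Nodal* was most like *Fgf5* (r = 0.950), *Irf1* (0.907) and *Tdgf1* (0.897). *Tdgf1* was most like *Foxd3* (0.964), *Slc7a3* (0.926) and *Fgf5* (0.914). Without E5.5 null 1, *Nodal* was most like *Galnt3* (0.947) and then *Fgf5* (0.919), and by Spearman's rho none of the partners named for *Nodal* and *Tdgf1* was among their 3 most alike. *Fgf5*, a marker of the formative and early primed epiblast, was at 2.64 to 158 CPM in E7.5 WT epiblasts (median 6.18) and at 79.2 to 137 CPM in E7.5 null epiblasts. *Foxh1* was most like *Armcx2* (0.966), *Spata13* (0.965) and *Mdk* (0.962), values that rest on E5.5 null 1, since without it the highest r was 0.858. *Pcsk6* was most like *Plec* (0.945), *Noct* (0.897) and *Usp24* (0.886). The *Lefty* genes had weaker partners: *Spry1* (0.784) and *Pml* (0.750) were among those of *Lefty1*, and *Dclk1* (0.720) and *Ankrd27* (0.711) among those of *Lefty2*.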

How the data were processed

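The authors aligned trimmed reads of each library to GRCm38 (mm10) with HISAT2, counted them per gene with StringTie and deposited raw counts, whole numbers for 47643 genes, without normalization; the annotation release and strand setting are not given in the sources used here. Libraries of epiblasts were made with a low-input total RNA kit and those of EpiSCs with another kit, and the 2 tables were kept apart. Groups came from the sample labels. The 10 members, the list of 27 other pathway genes and the marker lists were chosen with earlier results of these data known.

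Each comparison was fitted across all genes with edgeR 4.0.16 in R 4.3.3 on the counts of its own groups: TMM, filterByExpr (at least 10 counts, and 15 in total), robust dispersions, the two-sided quasi-likelihood test and p-values adjusted by Benjamini-Hochberg across every tested gene. The SE is the size of the log2 fold change over the square root of F. Calls needed an adjusted p under 0.05 and a log2 fold change beyond 1 in either direction. Single genes were compared by two-sided exact permutation tests of mean log2 CPM (prior count 2). Nothing in the labels or methods places more than 1 embryo in a library, and p-values measure the spread between these epiblasts or lines. The fitting was tested on simulated data. Near-identical copies were sought with blastn among GENCODE vM21 transcripts (at least 85% identity over 200 bases). No libraries were identical. Named genes were the members, *Stat3*, pathway genes that were called, and the 3 genes most like 6 of the members, a few of which are not reported here; *Pou5f1*, *Eomes*, *Shh*, *Elf5*, *Fgf5* and *Galnt3* were picked after their values were seen. Alternatives were DESeq2 1.42.0, RLE, other filters, abundant genes (over 1% of counts) left out, non-robust dispersions, all 35 libraries in 1 fit, voom with quality weights, a replicate block, depth as a term at E6.5, and each library left out.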

Additional observations from a re-analysis of the deposited data

Results flagged for a closer look

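Of 40 sets of 1 member in 1 group of 4 to 9 libraries, 6 held a library whose gap to its neighbour exceeded Dixon's 95% critical value; chance alone flags about 1 in 20. E5.5 null 1 was the lowest of 4 in *Nodal* (0 CPM), *Tdgf1* (0 CPM) and *Foxh1* (0.938 CPM). E6.5 WT 3 was the lowest of 9 in *Acvr2b*, at 53.4 CPM, and had the highest sum of visceral endoderm markers of its group. E6.5 WT 4 was the lowest of 9 in *Lefty2*, at 1.83 CPM. E6.5 null 1 was the highest of 8 in *Pcsk6*, at 89.2 CPM, and was also the E6.5 library with the most *Elf5*.

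The difference between null and WT in *Tgif1* was not the same at E7.5 as at E6.5, by the interaction term of edgeR (1.11 on the log2 scale, adjusted p = 0.0199); without E7.5 null 1, 2 or 3 it did not pass (adjusted p = 0.134, 0.119 and 0.05001 in edgeR).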

How the results depend on the processing

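The 4 calls in WT between E6.5 and E7.5 were 4 to 6 under all alternatives run. Between genotypes at E7.5, 0 members were called, 1 by DESeq2, 4 with voom quality weights and 0 to 3 when a library was left out. Between E5.5 and E6.5 in WT, 1 member was called (*Acvr2b*, higher). DESeq2 did not call it and called 2 others lower (*Gdf3* and *Pcsk6*), voom weights called 3 (*Acvr2b* higher, *Gdf3* and *Lefty1* lower), and the count was 0 with RLE, a mean count of at least 50, abundant genes left out or the replicate block, and 0 to 2 when a library was left out (2 without E5.5 WT 2, adding *Pcsk6*, or without E6.5 WT 3, adding *Lefty1*). DESeq2 called 1 member between the null stages, 1 in E7.5 null against E6.5 WT and 2 in the interaction; voom weights called 1 and 5 in the first and last. The interaction gave 1 with a mean count of at least 50 and 0 to 3 when a library was left out. E6.5 null against E5.5 WT gave 1 in the fit of all 35.

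The sign turned for *Lefty1* at E7.5 with the block (-0.33), *Lefty2* at E7.5 without null 3 (range over left-out libraries -0.00062 to 1.62), *Lefty1* in EpiSCs without WT 8 (-0.67 to 0.015), *Pcsk6* from E5.5 to E6.5 without WT 1 (-2.22 to 0.95) and *Tdgf1* between null stages without E6.5 null 2 or E7.5 null 1 (-0.30 to 0.14). The cause was not tested. A prior count of 0.5 changed no permutation call.

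Same-numbered libraries were not treated as pairs in the main fits. Their deviations correlated at 0.043 to 0.285 at E5.5 (median 0.164, against -0.048 for libraries of different numbers). The values were -0.075 to 0.304 at E6.5 (median 0.112 against -0.016) and -0.39 to 0.093 at E7.5 (median -0.014 against 0.00067). Whether same-numbered libraries share an origin was not tested. With the block, genes called went from 231 to 0 at E7.5, 1070 to 101 in WT from E5.5 to E6.5, 20 to 0 between null stages, 32 to 81 in E7.5 null against E6.5 WT, 33 to 13 in E6.5 null against E5.5 WT and 98 to 22 in the interaction. EpiSC lines share no number.

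Where edgeR called 0 genes, DESeq2 called 32 (E5.5) and 28 (E6.5). It called 1010 against 231 at E7.5, 214 against 22 in EpiSCs, 2037 against 1070 and 2331 against 1518 between the WT stages, 324 against 20 between the null stages, 273 against 32 in E7.5 null against E6.5 WT, 514 against 33 in E6.5 null against E5.5 WT and 633 against 98 in the interaction. Voom weights called 92 at E6.5, 1198 at E7.5, 16 in EpiSCs, 2131 and 2610 between the WT stages, 437 between the null stages, 315 in E7.5 null against E6.5 WT, 1068 in E6.5 null against E5.5 WT and 1499 in the interaction. The fit of all 35 called 5 at E5.5, 11 at E7.5, 104 between null stages, 269 in E6.5 null against E5.5 WT and 59 in the interaction. With no filter the counts were 75 in EpiSCs, 2805 between E6.5 and E7.5 in WT and 35 in the interaction, and 186 there with a mean count of at least 50. When single libraries were dropped they ranged at E7.5 from 0 (without null 2) to 1105 (without WT 3), in WT from E5.5 to E6.5 from 102 (without E5.5 WT 1) to 2029 (without E6.5 WT 3), in EpiSCs from 26 to 159 (without WT 8), between null stages from 0 (without E7.5 null 1 or 3) to 32, in E7.5 null against E6.5 WT from 4 (without E7.5 null 3) to 88 (without E6.5 WT 3), in E6.5 null against E5.5 WT from 4 (without E5.5 WT 1) to 173 (without E6.5 null 1) and in the interaction from 0 (without E7.5 null 1 or 2) to 482 (without E7.5 WT 3). The shares of all genes called rest on these libraries too. The non-overlap count at E5.5 without null 1, chosen after seeing the data, was 3 as before. Counts near 0 limit *Gdf3*, *Lefty1* and *Lefty2*.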
